A study of Mus musculus with 16 samples.

Results

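A set of 9 genes was followed that other tissues have made familiar as thyroid hormone-regulated or as hormone carriers: Klf9, Gpd2, Me1, Cpt1a, Ucp2, Atp2a2, Slc16a10, Bcl3 and Hr. They were chosen by name, with earlier results of these data known. All 9 had a row among the 47643 Ensembl gene identifiers of each deposited table. The study asked how signalling by thyroid hormone receptor alpha, encoded by Thra, affects regulatory T cells. It used spleens of 4 mice labelled TRaWT, wild-type littermates, and 4 mice labelled TRaGS, which carry a receptor alpha that has lost DNA binding, and sorted CD25- CD4+ T cells (labelled naive, called CD4 here) and CD25+ CD4+ regulatory T cells (Treg) from each mouse. That gave 4 libraries for each of the groups CD4 TRaWT, CD4 TRaGS, Treg TRaWT and Treg TRaGS, made with a kit that reads the 3' ends of mRNAs. No treatment, age, sex or number of mutant alleles is stated in the sources used here. The TRaGS allele is a germline change, so all cells of the mouse carry it, and a difference need not start in the T cells themselves.

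Thyroid hormone enters cells through membrane carriers, is converted between its more and less active forms by deiodinases, and acts through nuclear receptors. The receptors, usually paired with a retinoid X receptor, sit on DNA at copies of the motif AGGTCA, classically a direct repeat with a spacer of 4 bases, and switch between co-repressors and co-activators when hormone binds. In liver, heart, brain and brown fat the hormone raises many metabolic genes, and several of the genes followed here are standard readouts of its action in those tissues.

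RefSeq promoter sequences (GRCm38.p6, 250 bases before to 50 bases after each annotated start) were found for 7 of the 9 genes, with 9 starts in all. Those of Klf9 and Gpd2 are shown because these genes had non-overlapping genotypes in CD4, and that of Cpt1a because it was the only 1 of the 9 to hold the motif. Each reads 5' to 3' on the strand of its gene, and capitals mark the motif, here in its reverse complement.
Klf9, chr19:23140976-23141275, plus strand: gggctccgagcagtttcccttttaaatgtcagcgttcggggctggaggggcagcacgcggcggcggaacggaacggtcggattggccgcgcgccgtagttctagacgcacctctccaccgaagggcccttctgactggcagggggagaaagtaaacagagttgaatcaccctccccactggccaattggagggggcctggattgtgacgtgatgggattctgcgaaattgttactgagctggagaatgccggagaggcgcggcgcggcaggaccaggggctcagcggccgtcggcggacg
Gpd2, first of 2 starts, chr2:57237428-57237727, plus strand: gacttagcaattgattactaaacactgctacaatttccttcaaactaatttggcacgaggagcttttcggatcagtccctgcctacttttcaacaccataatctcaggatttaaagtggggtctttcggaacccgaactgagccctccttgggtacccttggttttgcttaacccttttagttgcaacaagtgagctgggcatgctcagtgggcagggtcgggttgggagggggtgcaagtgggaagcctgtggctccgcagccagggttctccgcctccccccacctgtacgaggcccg
Cpt1a, chr19:3323051-3323350, plus strand: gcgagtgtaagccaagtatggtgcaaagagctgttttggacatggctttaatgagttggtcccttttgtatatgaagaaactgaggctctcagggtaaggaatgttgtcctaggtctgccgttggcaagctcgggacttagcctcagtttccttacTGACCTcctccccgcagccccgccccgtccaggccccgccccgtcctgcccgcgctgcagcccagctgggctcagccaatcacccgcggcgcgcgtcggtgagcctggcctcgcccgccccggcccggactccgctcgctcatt

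The motif in the Cpt1a window lay at 3323207 to 3323212 on the minus strand and ended 89 bases before the RefSeq start. Searched on both strands, AGGTCA occurred in 16.3% of 32851 promoter windows of the same length (5340 windows), beside 1 of the 9 windows here. The full repeat, AGGTCA repeated in the same direction with 4 bases between, was found exactly in 5 windows (0.0152%) and with up to 2 mismatches in 993 (3.02%). None of the 9 windows held it even with 2 mismatches, which says only that these letters are not in these 300 bases.

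Libraries held 2679119 to 5095278 reads in CD4 and 2912038 to 4154027 in Treg, of which Gm42418, a gene that overlaps ribosomal RNA, took 21.1% to 41.1% and 20.8% to 33.0%. Values are normalised counts, comparable within a subset and not between subsets. Foxp3, the defining Treg factor, lay between 43.1 and 170 in CD4 libraries and between 893 and 1330 in Treg libraries, and the lowest values of Cd4 and Cd3e were 713 and 768 over all libraries. The library labelled CD4 TRaGS replicate 2 stood apart: its median Spearman correlation with the other CD4 libraries was 0.762, against 0.796 to 0.835 for the rest, and the summed erythroid markers reached 404 there, against 1.67 to 30.5 in CD4 TRaWT, so results resting on it are also given without it. Thra itself spanned 77.7 to 189 in CD4 TRaWT, 73.3 to 186 in CD4 TRaGS, 119 to 153 in Treg TRaWT and 88.9 to 211 in Treg TRaGS. A changed base in Thra need not alter its read count, so this does not check the genotype labels.

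Klf9 was the gene with the clearest separation of genotypes, lower in all TRaGS than in all TRaWT libraries of both subsets. Gpd2 was lower in all TRaGS CD4 libraries and overlapped in Treg. Ucp2, Cpt1a, Atp2a2 and Bcl3 were well detected and overlapped between genotypes in both subsets, Slc16a10 was low, and Me1 and Hr were too low to judge. None of the 7 genes tested in CD4 and none of the 6 tested in Treg passed limma's test at an adjusted p of 0.05 over all genes (those with 5 or more normalised counts on average in the subset). The background was 6 of 10426 genes in CD4 (0.0575%) and 106 of 11051 in Treg (0.959%). At an unadjusted limma p under 0.05 there was 1 of the 7 in CD4, Gpd2, and 0 of the 6 in Treg, beside 5.17% and 9.12% of all genes tested. On recovered reads, edgeR and DESeq2 also called 0 of these genes in either subset, though DESeq2 gave no adjusted p for Klf9 in CD4.

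All 7 genes tested in CD4 had a negative log2 fold change (TRaGS minus TRaWT on the log2(normalised count + 1) scale), with a median of -0.61. Of all genes tested there, 50.7% were negative and the median was -0.01. In Treg 4 of 6 were negative with a median of -0.03, beside 49.5% and 0.01 over all genes. The CD4 signs are not all firm: without TRaGS replicate 2 the value for Bcl3 turned to 0.12, and Cpt1a and Atp2a2 changed sign under other settings. That library was the lowest or highest of 8 for 5 of the 7 genes, lowest for Gpd2, Ucp2, Slc16a10 and Bcl3 and highest for Atp2a2. Because these are bulk RNA samples, fewer cells of a type that carries an mRNA and less mRNA per cell cannot be told apart.

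**Figure D1:**
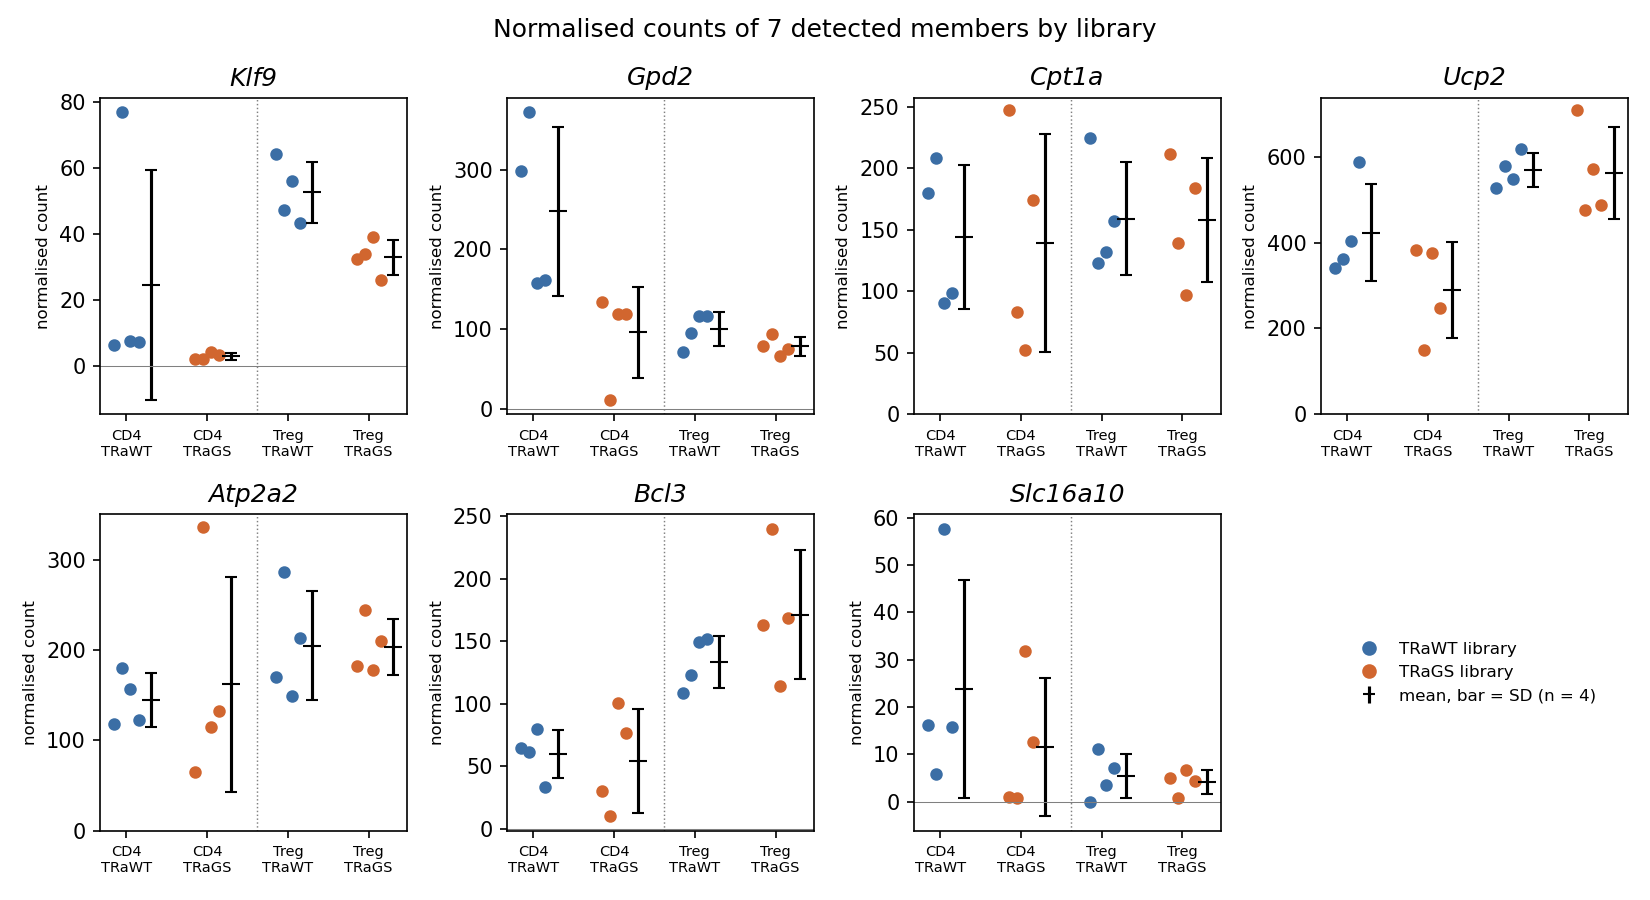
Normalised counts (y axis, linear, separate scale per gene) of 7 genes in each library, by subset and genotype (x axis); points are single mice, and black bars are mean and SD of 4. Klf9 in both subsets and Gpd2 in CD4 show TRaGS points (orange) all below TRaWT points (blue).

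Slc16a10 (ENSMUSG00000019838, chromosome 10: 40033532 to 40142258, minus strand, GRCm38) encodes a carrier of aromatic amino acids that also moves thyroid hormone across the membrane. In CD4 it stood at 16.1, 5.85, 57.7 and 15.9 in TRaWT replicates 1 to 4 and at 0.978, 0.707, 31.8 and 12.6 in TRaGS replicates 1 to 4, from 93 and 44 reads per genotype. Replicate 3 was the highest library of each genotype and the genotypes overlapped. The log2 fold change was -1.57 ± 1.33 (SE, limma, 95% interval -4.17 to 1.04, adjusted p = 0.947), and an exact permutation test gave p = 0.257. Single libraries moved this value: it was -0.95 without TRaGS replicate 2, -2.37 without TRaGS replicate 3, and -3.33 with TRaGS replicates 1 and 2 alone. In Treg the gene had 37 reads over 8 libraries, 0 to 11.1 in TRaWT and 0.723 to 6.69 in TRaGS, below the minimum mean, and was not tested.

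Klf9 (ENSMUSG00000033863, chromosome 19: 23141226 to 23168134, plus strand) encodes a zinc-finger transcription factor of the Krüppel-like family and is one of the most widely used direct targets of the receptor. In Treg its normalised counts were 64.1, 47.3, 56.0 and 43.4 in TRaWT and 32.4, 34.0, 39.0 and 26.1 in TRaGS. Every TRaGS mouse was below every TRaWT mouse, with means of 52.7 ± 9.24 and 32.9 ± 5.33 (SD, n = 4 mice each), 37.6% lower. These values rest on 210 and 145 reads, or 24 to 78 per library. The limma log2 fold change was -0.66 ± 0.47 (95% interval -1.61 to 0.28, adjusted p = 0.743), while the exact permutation test on Klf9 alone gave p = 0.0286 (two-sided), which is the lowest value possible with 4 mice per genotype. Leaving out each library in turn kept the fold change between -0.75 and -0.56.

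In CD4 Klf9 stood at 6.46, 76.9, 7.62 and 7.32 in TRaWT and at 1.96, 2.12, 4.10 and 3.44 in TRaGS. The genotypes again did not overlap, but a single TRaWT mouse, replicate 2, held 92 of the 113 TRaWT reads, and the 4 TRaGS libraries had 12 reads together. The means were 24.6 ± 34.9 and 2.90 ± 1.04 (SD, n = 4), 88.2% lower. Without TRaWT replicate 2 the TRaWT mean was 7.13 and TRaGS 59.3% lower. The log2 fold change with all libraries was -1.91 ± 1.38 (95% interval -4.62 to 0.80, limma adjusted p = 0.947, exact permutation p = 0.0286). That limma fit gives all CD4 genes of a like level the same spread, whereas the permutation test uses only the spread of Klf9. Without TRaWT replicate 2 the mean over libraries fell below the minimum and Klf9 could not be tested.

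Being lower in TRaGS without overlap was met by 2 of the 7 tested genes in CD4, Klf9 and Gpd2, where 1.73% of all tested genes (180 of 10426) met it. In Treg it was met by 1 of 6, Klf9, beside 2.23% (246 of 11051). Of 9914 genes tested in both subsets, 6 (0.0605%) met it in both: Klf9, Igfbp4, Oas1b, Usp18, Emc8 and Ifit1bl1, the other 5 being read off after their values were seen. The subsets came from the same mice and are not independent repeats. The followed genes were chosen with earlier results of these data known, so these shares and the single-gene permutation tests are descriptions.

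Treg markers and Cd4 moved in part along with genotype. The sums of B cell, CD8 T cell, NK cell and myeloid markers overlapped between genotypes in both subsets. The 2 CD8 T cell markers summed to 240 to 347 in CD4 TRaWT and to 228 to 389 in CD4 TRaGS. In Treg they summed to 274 to 355 in TRaWT and to 298 to 344 in TRaGS. In Treg libraries the sum of 5 Treg markers ran from 6775 to 7828 in TRaWT and from 7761 to 9397 in TRaGS, but its members did not move as one. Il2ra, which encodes the sorting marker CD25, ran from 1351 to 1699 in TRaWT and from 1009 to 1370 in TRaGS, and Foxp3 from 1069 to 1214 and from 893 to 1330. The sum of 6 B cell markers in Treg ran from 45.5 to 161 and from 79.4 to 215, with the defining B cell gene Cd79a between 0 and 1.17. In CD4 libraries the Treg markers summed to 620 to 907 in TRaWT and 905 to 1259 in TRaGS, but Foxp3 and Il2ra overlapped. Foxp3 ran from 45.9 to 115 in CD4 TRaWT and from 43.1 to 170 in CD4 TRaGS. Il2ra ran from 72.7 to 133 and from 65.8 to 139 in turn. Cd4 was higher in all TRaGS than in all TRaWT libraries of both subsets. In CD4 libraries it ran from 846 to 995 in TRaWT and from 1037 to 1131 in TRaGS. In Treg libraries it ran from 713 to 754 and from 813 to 1028. Of all tested genes, 149 of 10426 in CD4 and 314 of 11051 in Treg were higher in TRaGS without overlap. The B cell markers in CD4 libraries summed to at most 101 in TRaWT and 171 in TRaGS. Cd79a reached 1.09 in TRaWT and 49.5 in TRaGS. Both TRaGS maxima were in replicate 2, the library that stood apart, so they rest on 1 library. The part of these differences in the lower Klf9 and Gpd2 values was not tested.

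Hr (ENSMUSG00000022096, chromosome 14: 70552212 to 70573548, plus strand) encodes a nuclear co-repressor and is a strong receptor target in brain. It had 0 reads in all 16 libraries, of 19045564 reads without Gm42418 in CD4 and 19515334 in Treg. A count of 0 allows up to 3 reads, which is 0.158 and 0.154 RPM (reads scaled to the library total without Gm42418) over the pooled libraries of each subset, or 0.746 to 1.77 and 0.912 to 1.48 in single libraries, counting error only. Hr was thus not detectable at this depth and says nothing about genotype.

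Gpd2 (ENSMUSG00000026827, chromosome 2: 57237635 to 57370719, plus strand) encodes the mitochondrial glycerol-3-phosphate dehydrogenase, which passes electrons from glycerol phosphate to the respiratory chain and rises with thyroid hormone in liver. In CD4 the normalised counts were 299, 372, 158 and 162 in TRaWT and 134, 11.3, 119 and 119 in TRaGS. All TRaGS mice lay below all TRaWT mice, and TRaGS replicate 2 lay far below the other 3. The means were 248 ± 105 and 95.8 ± 56.8 (SD, n = 4), 61.3% lower, with a log2 fold change of -1.73 ± 0.51 (limma, 95% interval -2.73 to -0.73, adjusted p = 0.510, exact permutation p = 0.0286).

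Without TRaGS replicate 2 the Gpd2 mean in TRaGS was 124, 49.9% lower, and the log2 fold change was -0.89 (adjusted p = 0.927). With TRaGS replicates 1 and 2 alone against all TRaWT, the fold change was -2.51 and passed (limma adjusted p = 0.0401). That setting keeps replicate 2, the library far below the others, so it does not show a Gpd2 difference apart from that library. Replicates 1 and 2 are the TRaGS mice whose animal numbers lie closest to those of the TRaWT mice. In Treg, Gpd2 ran at 71.5, 95.6, 117 and 116 in TRaWT and at 78.9, 94.0, 65.8 and 75.0 in TRaGS. The genotypes overlapped, with a log2 fold change of -0.33 ± 0.33 (95% interval -0.99 to 0.33, adjusted p = 0.849, exact permutation p = 0.171).

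Me1 (ENSMUSG00000032418, chromosome 9: 86581371 to 86695953, minus strand) encodes cytosolic malic enzyme, a source of NADPH for fatty acid synthesis and a long-used hormone-responsive liver enzyme. It had 1 read in each genotype in CD4 and 0 reads in Treg, at or under the 3 reads that a count of 0 allows, and could not be judged. Me2, the mitochondrial malic enzyme, was detected at 144 ± 44.5 and 117 ± 32.1 (SD, n = 4) in CD4 TRaWT and TRaGS, with overlapping genotypes.

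Cpt1a (ENSMUSG00000024900, chromosome 19: 3322334 to 3385733, plus strand) encodes the enzyme that attaches carnitine to long-chain fatty acids for their entry into mitochondria. Its normalised counts in CD4 were 180, 208, 90.4 and 98.8 in TRaWT and 247, 83.4, 52.3 and 174 in TRaGS. In Treg they were 224, 123, 132 and 157 in TRaWT and 212, 140, 97.0 and 184 in TRaGS. The genotypes lay across each other in both subsets. The log2 fold changes were -0.20 ± 0.51 in CD4 (95% interval -1.21 to 0.80) and -0.03 ± 0.27 in Treg (95% interval -0.58 to 0.52). Without TRaGS replicate 2 the CD4 value was -0.04. Both intervals span 0, and the limma adjusted p was 0.981 and 0.988.

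Ucp2 (ENSMUSG00000033685, chromosome 7: 100493337 to 100502020, plus strand) encodes a carrier of the inner mitochondrial membrane related to the uncoupling protein of brown fat. In CD4 it stood at 340, 363, 403 and 589 in TRaWT and at 382, 151, 376 and 248 in TRaGS. TRaGS replicates 2 and 4 were below all TRaWT mice and the other two lay among them, with means of 424 ± 113 and 289 ± 111. The log2 fold change was -0.61 ± 0.34 (95% interval -1.28 to 0.06, limma adjusted p = 0.947, exact permutation p = 0.200), and -0.33 without TRaGS replicate 2. In Treg it stood at 528, 579, 548 and 619 in TRaWT and at 709, 477, 572 and 488 in TRaGS. The log2 fold change there was -0.03 ± 0.17 with a 95% interval of -0.37 to 0.30, the narrowest among the tested genes of the set. The 3' end of Ucp2 overlaps Dnajb13 on the other strand, a gene that had 66 reads in CD4 and 128 in Treg.

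Atp2a2 (ENSMUSG00000029467, chromosome 5: 122453513 to 122502225, minus strand) encodes the pump that returns calcium to the endoplasmic reticulum, a hormone-responsive gene of heart muscle. It ran at 118, 180, 157 and 122 in CD4 TRaWT and at 64.5, 336, 115 and 133 in CD4 TRaGS. TRaGS thus held both the lowest and the highest library. In Treg the values were 170, 287, 149 and 214 in TRaWT and 183, 244, 177 and 210 in TRaGS. On the log2 scale TRaGS differed from TRaWT by -0.07 ± 0.49 in CD4 (95% interval -1.03 to 0.89) and by 0.02 ± 0.24 in Treg (-0.46 to 0.50), and by -0.51 in CD4 without TRaGS replicate 2. Atp2a3, the related pump of blood cells, was at 516 ± 162 and 475 ± 138 (SD, n = 4) in CD4 and at 578 ± 95.6 and 551 ± 107 in Treg, for TRaWT and TRaGS in turn, also overlapping.

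Bcl3 (ENSMUSG00000053175, chromosome 7: 19808462 to 19822770, minus strand) encodes a nuclear partner of the NF-kB subunits p50 and p52. In CD4 its normalised counts were 64.6, 61.0, 79.5 and 32.9 in TRaWT and 30.3, 9.90, 100 and 76.8 in TRaGS. In Treg they were 108, 123, 149 and 151 in TRaWT and 163, 240, 114 and 169 in TRaGS. Of the 4 TRaGS Treg libraries, replicates 1, 2 and 4 lay above all TRaWT Treg libraries and replicate 3 lay among them. The log2 fold change in Treg was 0.33 ± 0.27 (95% interval -0.21 to 0.87, limma adjusted p = 0.796, exact permutation p = 0.200). In CD4 it was -0.51 ± 0.81 and turned to 0.12 without TRaGS replicate 2. The genes of its partners, Nfkb1 and Nfkb2, also overlapped between genotypes, with Nfkb1 at 494 ± 64.4 and 486 ± 36.6 in Treg TRaWT and TRaGS.

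**Figure D2:**
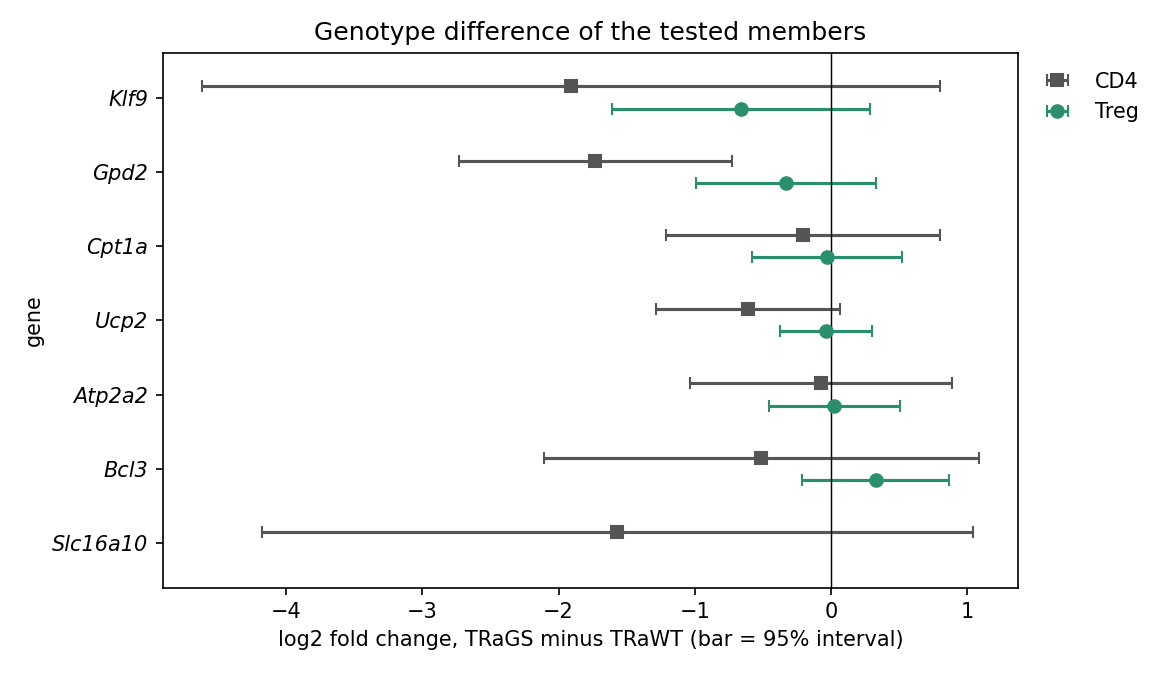
Log2 fold change (x axis, TRaGS minus TRaWT, limma on log2(normalised count + 1), bars 95% intervals) of each tested gene (y axis), squares for CD4 and circles for Treg. The interval of Gpd2 in CD4, -2.73 to -0.73, is the only one that does not reach 0, and it did not pass after adjustment over all genes.

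Whether the genotype difference itself differed between subsets was tested on the Treg minus CD4 values of each mouse. None of the 6 genes tested in both subsets passed (limma, background 17 of 9914 genes, 0.171%). Gpd2 came nearest, with a difference of 1.40 ± 0.67 on the log2 scale (95% interval 0.07 to 2.73, unadjusted p = 0.0391 and adjusted p = 0.731 from limma over all genes). Gpd2 was the 1 of 6 with an unadjusted p under 0.05, beside 6.62% of all genes tested. The difference was 1.25 ± 1.38 for Klf9, 0.84 ± 0.74 for Bcl3, 0.58 ± 0.34 for Ucp2, 0.18 ± 0.55 for Cpt1a and 0.10 ± 0.51 for Atp2a2. Without TRaGS replicate 2 it was 0.47 for Gpd2, 1.13 for Klf9, 0.03 for Bcl3, 0.37 for Ucp2, 0.05 for Cpt1a and 0.44 for Atp2a2. The Bcl3 value thus rested on that mouse, and the Gpd2 value did in large part. A difference between the subsets in the genotype effect was therefore not shown for any of them.

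Levels across subsets were set side by side in RPM, as a description with no test. Bcl3 was higher in Treg than in CD4 in 8 of 8 mice, at 56.5 ± 8.97 against 28.2 ± 9.31 in TRaWT and 73.3 ± 20.8 against 25.5 ± 20.5 in TRaGS. Klf9 and Ucp2 were each higher in Treg in 7 of 8 mice. The exceptions were TRaWT mice, replicate 2 for Klf9 (35.6 in CD4 and 20.8 in Treg) and replicate 4 for Ucp2. Gpd2 went the other way and was lower in Treg in 7 of 8 mice, at 42.5 ± 9.26 against 116 ± 46.9 in TRaWT and 33.6 ± 4.51 against 44.3 ± 26.9 in TRaGS. Atp2a2 was higher in Treg in 6 of 8 mice, Cpt1a in 5 of 8 and Slc16a10 in 3 of 8. For every gene the ranges of the 2 subsets overlapped.

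**Figure D3:**
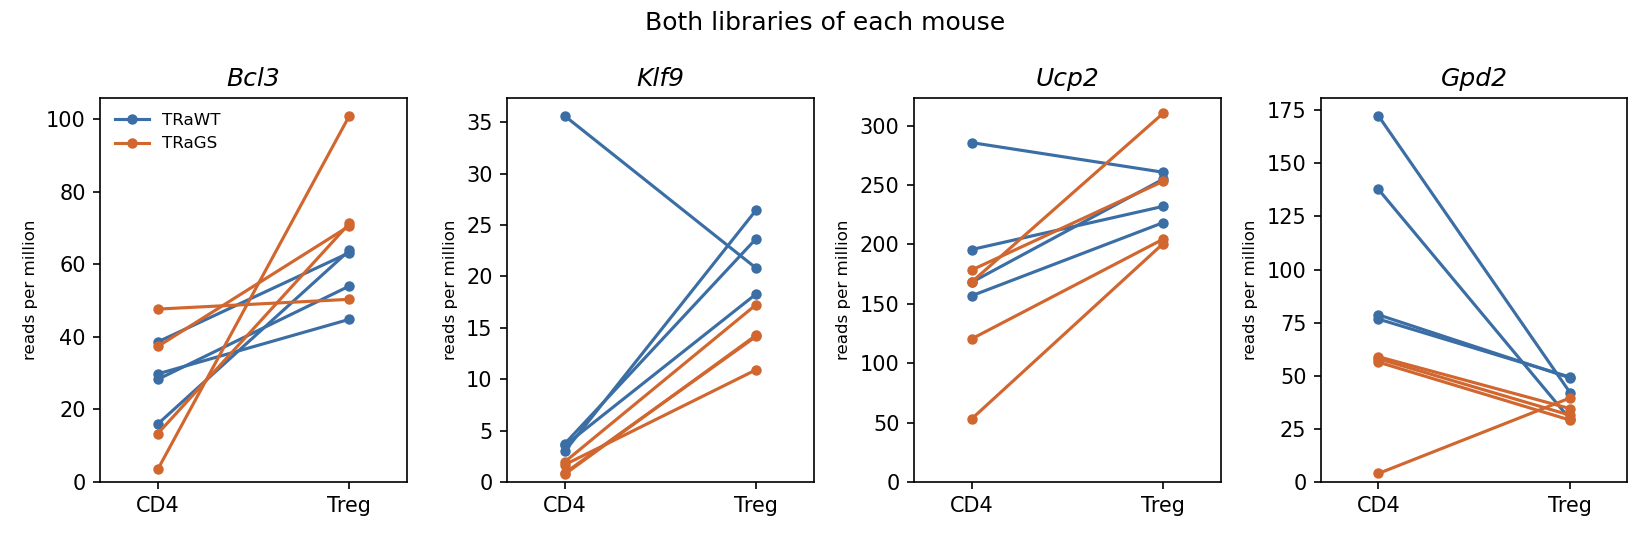
Levels in RPM without Gm42418 (y axis) in the CD4 and Treg library of each mouse (x axis), joined by a line, blue for TRaWT and orange for TRaGS. Bcl3 is higher in Treg in 8 of 8 mice, Klf9 and Ucp2 in 7 of 8, and Gpd2 is lower in Treg in 7 of 8.

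Other genes of the pathway were taken from lists of known members. Of 14 genes of hormone transport and metabolism, 2 were tested in CD4 and 3 in Treg, and 8 and 6 had no read at all in that subset. Dio2, the activating deiodinase, had 27 reads in CD4 TRaWT and 0 in CD4 TRaGS, but 5 and 33 in Treg, so its low counts differed in direction between the subsets, and it was below the minimum mean in both. Crym, a cytosolic hormone binder, had 0 reads. Slc3a2, the heavy chain of amino acid carriers that also take up hormone, stood at 195 ± 106 and 153 ± 63.0 in CD4 and 117 ± 53.6 and 149 ± 50.2 in Treg (SD, n = 4, TRaWT and TRaGS in turn), and its light chain Slc7a5 was at 10.8 ± 9.34 and 12.5 ± 9.92 in CD4.

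Receptors and their partners were the best detected list, with 8 of 9 genes tested in each subset. Other known hormone-regulated genes were often absent, with 16 of 33 tested in CD4 and 17 in Treg, and 13 and 12 without a read. Isoforms and partners of the 9 genes had 15 and 16 of 21 tested. No gene of these 4 lists was called by limma in either subset. Unadjusted p was under 0.05 for 1 of 41 tested genes of these lists in CD4 (5.17% over all genes), Kdm3a (log2 fold change 0.96 ± 0.45, adjusted p = 0.947), and for 3 of 44 in Treg (9.12% over all genes), among them the sodium pump subunit gene Atp1b1 (-0.62 ± 0.23, adjusted p = 0.335) and Klf4 (-1.58 ± 0.67, adjusted p = 0.423). These shares are near or below those over all genes and are not a result about the lists. Mbp was the 1 of 44 lower in TRaGS Treg without overlap (2.23% over all genes), at 365 ± 16.8 and 305 ± 26.1 (SD, n = 4), with a limma adjusted p of 0.753. These genes were named after their values were seen. Medians of the lists ran from -0.11 to 0.25 in CD4 and from -0.35 to 0.18 in Treg. For the transport and metabolism list they rest on 2 and 3 tested genes. The 7 followed genes tested in CD4 had a median of -0.61, with TRaGS replicate 2 included. They were chosen with earlier results of these data known, so the medians are a description. Klf13, the nearest relative of Klf9, was at 1179 ± 97.1 and 1148 ± 129 in Treg TRaWT and TRaGS, and its genotypes overlapped in both subsets.

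**Figure D4:**
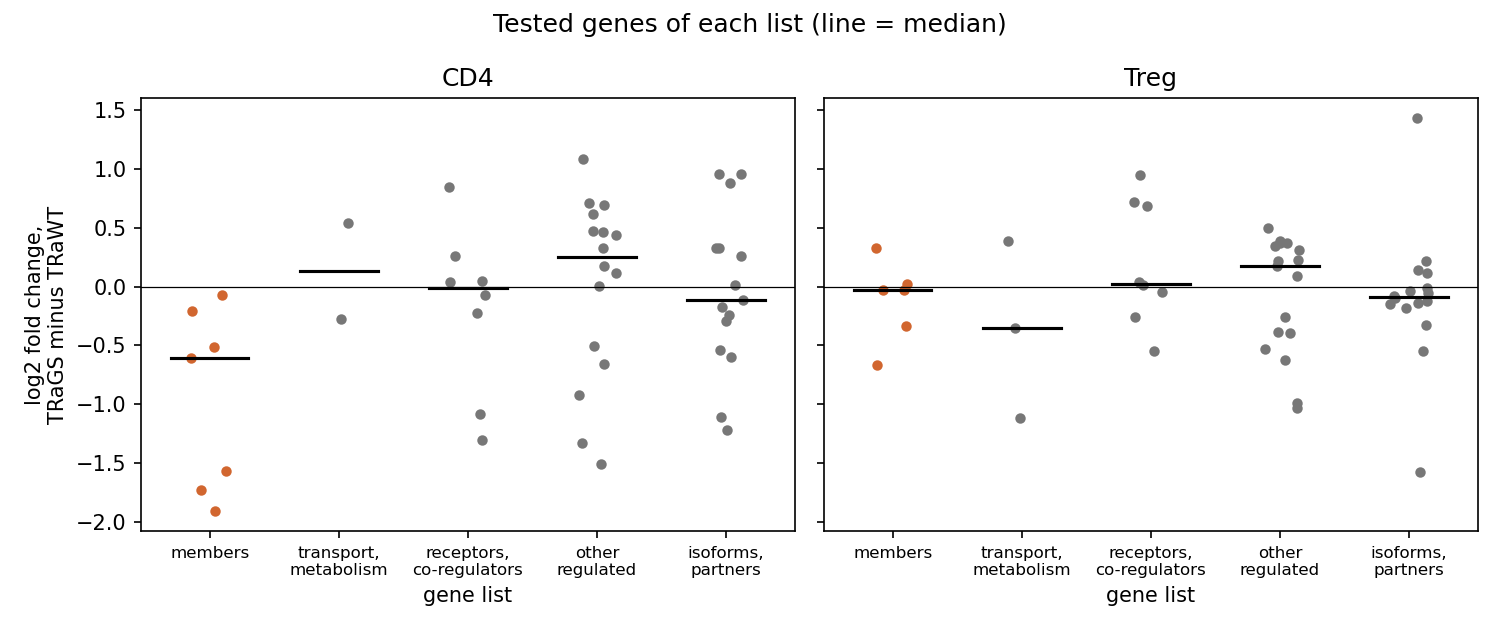
Log2 fold change (y axis, TRaGS minus TRaWT) of each tested gene by list (x axis) in CD4 and Treg, with a line at each median. The 9 followed genes (orange, 7 and 6 tested) have medians of -0.61 in CD4 and -0.03 in Treg.

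Genes whose levels moved most like Ucp2 and Atp2a2, the genes above a mean of 200, were read off across the 8 libraries of a subset after removing genotype means, as a description. For Ucp2 these were Pknox1 (Pearson r 0.96), Ranbp2 (0.96) and Oxct1 (0.95) among 2006 genes in CD4, and Gatad2b (0.95), Ubtf (0.91) and Tet3 (0.91) among 2087 in Treg. For Atp2a2 in Treg they were Rap1gds1 (0.90), Camk2d (0.90) and Mat2a (0.89). The highest of so many correlations over 8 points that share library and depth are high by selection.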

How the data were processed

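Per the labels' protocols, splenic CD4+ T cells were enriched magnetically, sorted on CD25, and their RNA made into 3' mRNA libraries. The submitters' processing notes name GRCm38. For the aligner, counter and strand setting: not given in the sources used here. Per subset, the authors deposited a table of normalised counts, a signal unit equal to reads divided by 1 factor per library, each table normalised by itself. Reads were recovered as whole multiples of each library's step (100% of values within 0.001), though in Treg TRaWT replicate 2 the step lies so near 1 (1.01) that this shows little. With those reads, edgeR 4.0.16 called 3 CD4 genes and 90 Treg genes. No column was left unused (0).

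Genotypes were compared with limma 3.58.1 (R 4.3.3, variance trend, no block) on log2(normalised count + 1), over genes with a mean of at least 5, with Benjamini-Hochberg adjustment over all tested genes, and single genes with a two-sided exact permutation test over libraries. In CD4 the limma prior replaced each gene's own spread (infinite prior degrees of freedom), and in Treg it had 36.8 degrees of freedom. The difference between subsets used each mouse's Treg minus CD4 value. Each library is 1 mouse, labelled a biological replicate. edgeR and DESeq2 1.42.0 were alternatives. The procedure was tested on simulated data. Coordinates are from GENCODE M21 and promoters from RefSeq.

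The named genes are all 9, any gene of the other lists that was called, and preset relatives; a few more were named after their values were seen, and are marked so. Some listed genes are not reported here. Likeness is the Pearson correlation within genotype among genes with a mean of at least 200. The 9 genes and the lists were chosen with earlier results of these data known.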

Additional observations from a re-analysis of the deposited data

Results flagged for a closer look

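Of 26 groups of 4 libraries examined, 2 held a library far from the other 3 (a gap to the nearest library, as a share of the group's range, above Dixon's critical value). Chance gives about 1 in 20. Klf9 in CD4 TRaWT replicate 2 was 76.9 normalised counts, a gap of 0.983 of the range. Gpd2 in CD4 TRaGS replicate 2 was 11.3, a gap of 0.878. The Treg library of the same TRaWT mouse had 47.3 for Klf9, among the other TRaWT mice, and that of the same TRaGS mouse had 94.0 for Gpd2, the highest of its group. The CD4 TRaGS replicate 2 library was the deepest, at 5095278 reads. The part of depth, or of erythroid or B cell RNA, in its low Gpd2 value was not tested.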

How the results depend on the processing

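The low depth of Klf9 and Slc16a10 limits what can be said of them, and CD4 libraries varied more than Treg libraries. Genes called in CD4 (6) were 1 with no filter, 2 with upper-quartile scaling, 3 with edgeR, 10 with DESeq2, 0 with no variance trend, 27 with TRaGS replicates 1 and 2 alone and 3 to 9 leaving out a library (3 without TRaWT replicate 2, 3 or 4). In Treg (106) they were 62 with no filter, 0 with no variance trend, 42 with TRaGS replicates 1 and 2 alone and 56 to 108 leaving out a library (56 without TRaGS replicate 3, 61 without replicate 4). For the difference (17) they were 1 with no filter, 6 with upper-quartile scaling, 4 with 1 model of all libraries, 0 with the variance trend on the mean difference (chosen after seeing the data) and 12 to 31 leaving out a mouse (31 without TRaGS replicate 4).

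Followed genes called in CD4 numbered 1, Gpd2, with TRaGS replicates 1 and 2 alone, and 0 in every other setting and subset. The setting with that call keeps TRaGS replicate 2, the library with the lowest Gpd2 value. Those lower without overlap numbered 2 in CD4 on leaving out any library, and 1 to 2 in Treg (2 without TRaWT replicate 1). That count, added after seeing the data, can only stay or rise when a library is left out, so it says nothing about stability.

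Signs of small fold changes turned. Cpt1a in CD4 was 0.0874 with TRaGS replicates 1 and 2 alone and -0.56 to 0.18 leaving out a library. Atp2a2 in CD4 was 0.16 with edgeR, 0.17 with DESeq2, 0.0548 with TRaGS replicates 1 and 2 alone and -0.51 to 0.28 leaving out a library. Bcl3 in CD4 ran from -0.95 to 0.12 leaving out a library and was -1.64 with TRaGS replicates 1 and 2 alone. Cpt1a in Treg was 0.0605 with upper-quartile scaling, 0.15 with TRaGS replicates 1 and 2 alone and -0.19 to 0.18 leaving out a library. Ucp2 in Treg was 0.0557, 0.0353 and -0.15 to 0.0384 in turn. Atp2a2 in Treg was -0.0082 with DESeq2 and -0.11 to 0.20 leaving out a library. Leaving out a mouse, the differences between subsets ran from -0.14 to 0.37 for Cpt1a and -0.21 to 0.44 for Atp2a2, and upper-quartile scaling gave 0.39 for Cpt1a. The cause was not tested. Klf9 in both subsets, and Gpd2, Ucp2 and Slc16a10 in CD4, kept a negative sign in all alternatives that could be run.

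The replicate block gave 4 called genes in CD4, 112 in Treg and 18 for the difference, and changed no call of a followed gene. The labels do not say whether mice of the same replicate number share a litter or day. Deviations of same-numbered mice correlated at 0.00903 to 0.0456 in CD4 and -0.0210 to 0.0255 in Treg. Such values cannot show whether they did. Klf9 in CD4 fell below the filter without TRaWT replicate 2 or at a minimum mean of 20, as did Slc16a10 at 20, and has no value there.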
